A study of Mus musculus with 45 samples.

Results

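The germinal center (GC) pair of wildtype (WT) mice was 12 of the 45 RNA-sequencing samples of the study, namely all 6 samples of GC B cells and all 6 of T follicular helper (Tfh) cells that the labels give for this genotype. GC B cells had been sorted as B220+ GL7+ Fas+ on day 9, and Tfh cells as TCRβ+ CD4+ PD1+ CXCR5+ on day 6, from draining popliteal lymph nodes of immunized mice. The mice (S1pr4+/+ littermates of the B6.129P2-S1pr4tm1Dgen/J strain, backcrossed to C57/BL6, males and females of 8 to 12 weeks) had received 50 µg OVA and 5 µg LPS in 20 µl of an IFA emulsion in the footpad. For comparison, the same pair from S1PR4-/- mice (12 samples) and non-GC B (B220+ GL7- Fas-, day 9, 5 samples) with non-Tfh (TCRβ+ CD4+ PD1- CXCR5-, day 6, 6 samples) cells from WT mice were used. These groups had the same immunization. Because B cells and T cells were collected on different days, cell type and day of sort cannot be told apart in the comparison of GC B with Tfh cells. The methods name as many WT mice for the sort as there are samples in a group, but the labels tie no sample to a mouse, so the p-values measure the spread between these samples.

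In the germinal center, B cells mutate their antibody genes, take up antigen and show peptides of it on MHC class II to Tfh cells. The Tfh cell answers with CD40 ligand and cytokines, of which IL-21 and IL-4 are the best known, and the B cell offers costimulatory ligands such as ICOS ligand and CD86. The same encounter is tuned by inhibitory receptors, by adhesion molecules of the SLAM and integrin families and by receptors that hold both cells inside the follicle.

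Library totals were 26299429 to 38523000 expected counts in GC B and 32797505 to 43668027 in Tfh samples. Levels are given as CPM, counts scaled to a common library size after TMM normalization, and differences as log2 fold change, GC B minus Tfh, with the standard error (SE) and the adjusted p of edgeR's quasi-likelihood test. Of 13719 genes tested, 2758 (20.1%) were called higher in GC B cells and 3319 (24.2%) higher in Tfh cells. A call needs a fold change over 1.5 and an FDR under 0.05. At a fold change over 4, here named parted, 1061 genes (7.73%) were higher in GC B and 1388 (10.1%) higher in Tfh cells. The ranges of the 2 groups did not overlap for 2968 genes higher in GC B and 3601 higher in Tfh cells. A lack of overlap was thus common. The median log2 fold change over all tested genes was -0.01, and 86.5% of the variance lay on the component that separated the cell types. In these bulk samples, fewer cells that carry a transcript and less of it per cell cannot be told apart.

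The sorted populations carried their defining markers. All 12 B cell markers were called higher in GC B cells and all 12 T cell markers in Tfh cells (all genes 20.1% and 24.2%). Cd3e, a chain of the T cell receptor complex, ranged from 0 to 0.923 CPM in GC B samples and from 701 to 966 in Tfh samples. Ms4a1, which encodes the B cell surface protein CD20, ranged from 1811 to 2580 CPM in GC B samples and from 1.31 to 46.2 in Tfh samples. The B cell RNA in Tfh cells was uneven: Ms4a1 was 29.8 to 46.2 CPM in Tfh samples 1 to 3 and 1.31 to 4.98 in samples 4 to 6. The summed level of the 12 B cell markers was 420 to 469 CPM in samples 1 to 3, 145 to 226 in samples 4 to 6, and 7841 to 12493 in GC B samples, with no marker at 0 in either group. Differences of B cell genes are therefore in most cases also given against Tfh samples 4 to 6 alone where that moves them by more than 1.5 times. The part of B cell RNA in those differences was not tested otherwise.

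**Figure D1:**
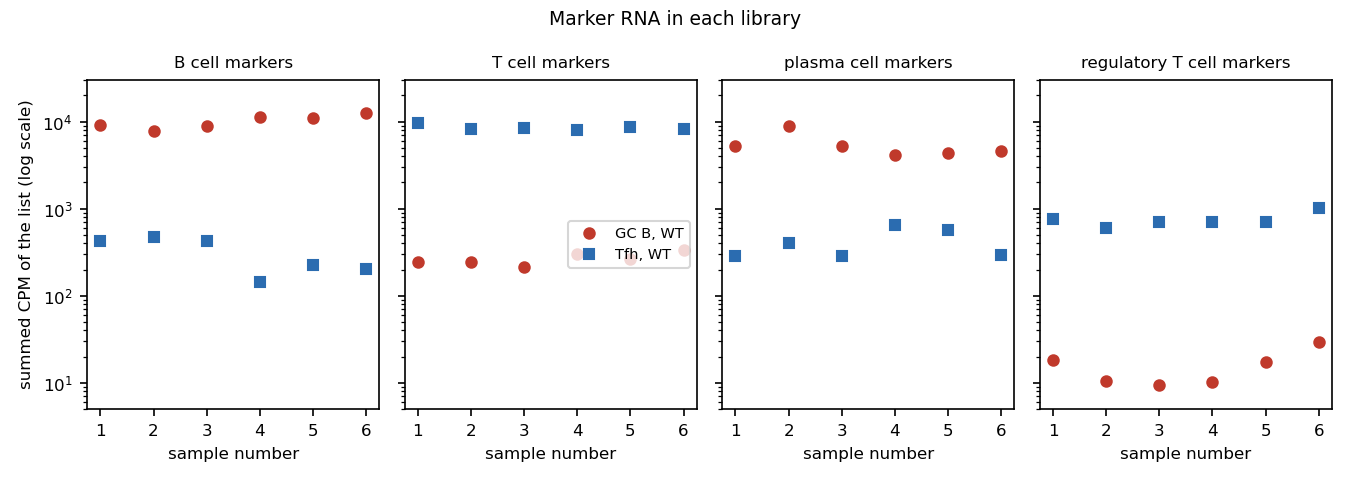
Summed CPM (log axis) of 4 marker lists in each GC B (circles) and Tfh (squares) sample, by sample number. B cell markers reached 420 to 469 CPM in Tfh samples 1 to 3 and 145 to 226 in samples 4 to 6, and the plasma cell list was highest in GC B sample 2 (8939 CPM). Equal sample numbers are not taken as pairs.

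Markers of other cells were measured too. Plasma cell genes were called higher in GC B cells for 7 of 8 (all genes 20.1%). Their sum was 8939 CPM in GC B sample 2 against 4133 to 5239 in the other GC B samples. All 6 regulatory T cell markers were called higher in Tfh cells (all genes 24.2%). Foxp3, the lineage factor of regulatory T cells, was at 85.1 to 189 CPM (median 122) in Tfh samples. The gate does not use Foxp3. Of 8 CD8 and NK cell genes, 7 were tested. In Tfh cells 5 were called higher (all genes 24.2%), with medians of 49.8 CPM for Klrb1c, 44.3 for Gzmb, 11.8 for Cd8b1 and 2.77 for Cd8a, and Prf1 was called higher in GC B cells (0.99). Of 12 myeloid and dendritic genes 10 were tested and 3 were called higher in GC B cells, close to the 20.1% of all genes, and Lyz2, a myeloid lysozyme, was not called, although it passed without GC B sample 2 (1.27), GC B sample 3 (1.25) or Tfh sample 2 (1.33). Ddx3y, a Y-linked gene, was over 1 CPM in 3 GC B and 1 Tfh samples, so the sexes were not evenly split. The genes of the proteins used in the gates (Fas, Ptprc, Cd4, Pdcd1, Cxcr5 and the TCR constant genes) are not read as results between the cells. The RNA did not always follow the gate. Fas, a gate gene of GC B cells, was not called (0.225). Ptprc, which encodes B220, was 977 to 1437 CPM in GC B and 3086 to 4244 in Tfh samples.

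The genes of MHC class II presentation were all called higher in GC B cells, and promoters of 4 are shown because they hold a short shared sequence near the start site. The letters GATTGG, read on either strand, were sought in the 250 bases before each start in RefSeq's promoter windows (GRCm38.p6), which hold 9 of the 12 genes. They occurred in 7 of the 9 (H2-Aa, H2-Eb1, H2-DMa, H2-DMb1, H2-DMb2, H2-Oa and H2-Ob), and in 16.6% of the 27025 genes with a window. The match began 49 bases before the start in H2-Aa (chr17:34287824-34288073, minus strand), 60 in H2-Eb1 (chr17:34305617-34305866, plus), 62 in H2-DMb1 (chr17:34152941-34153190, plus) and 58 in H2-Ob (chr17:34238655-34238904, plus). It began 44 bases before the start in H2-Oa, 91 in H2-DMb2 and 199 in one window of H2-DMa, whose other window had none. Capitals mark GATTGG or its reverse complement.
H2-Aa: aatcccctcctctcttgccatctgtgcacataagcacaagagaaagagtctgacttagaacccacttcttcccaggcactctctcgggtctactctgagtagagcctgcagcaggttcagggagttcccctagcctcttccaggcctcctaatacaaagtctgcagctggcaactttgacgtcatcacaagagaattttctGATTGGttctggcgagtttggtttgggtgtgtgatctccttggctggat
H2-Eb1: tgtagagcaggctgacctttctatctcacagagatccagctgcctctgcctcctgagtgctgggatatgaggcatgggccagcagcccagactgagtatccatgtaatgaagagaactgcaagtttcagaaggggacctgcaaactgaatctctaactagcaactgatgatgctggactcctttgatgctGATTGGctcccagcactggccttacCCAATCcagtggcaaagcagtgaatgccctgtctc
H2-DMb1: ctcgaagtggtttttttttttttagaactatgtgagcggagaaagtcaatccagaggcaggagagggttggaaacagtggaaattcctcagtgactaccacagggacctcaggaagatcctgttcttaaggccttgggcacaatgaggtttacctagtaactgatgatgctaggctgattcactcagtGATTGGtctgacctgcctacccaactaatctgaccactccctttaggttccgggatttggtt
H2-Ob: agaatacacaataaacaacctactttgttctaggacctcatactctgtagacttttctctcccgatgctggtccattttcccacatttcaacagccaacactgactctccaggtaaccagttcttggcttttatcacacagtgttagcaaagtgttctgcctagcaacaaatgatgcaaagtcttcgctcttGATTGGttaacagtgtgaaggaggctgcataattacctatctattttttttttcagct
Such a match is a description of the window and names no bound factor.

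All 12 genes of this group were called higher in GC B cells, against 20.1% of all genes, with a median log2 fold change of 4.61. H2-Aa, the alpha chain of I-A, ranged from 2244 to 3734 CPM (median 2926) in GC B and from 72.1 to 169 (median 86.5) in Tfh samples, a log2 fold change of 4.90 (SE 0.24, adjusted p = 5.81e-10). Cd74, the invariant chain that guides class II molecules to the endosome, had a median of 17046 CPM in GC B and 447 in Tfh samples, and the ranges lay far apart. Ciita, the coactivator that drives class II transcription, had a log2 fold change of 5.42 (SE 0.34, adjusted p = 6.73e-09). Against Tfh samples 4 to 6 the value for Ciita was 6.18 and for Cd74 5.71 in place of 5.13. The smallest differences were those of the lysosomal enzymes Ctss (0.72) and Ifi30 (1.98), which are not specific to class II presenting cells. On the Tfh side of this contact, Cd4 and the TCR chains belong to the gate, and Lag3, an inhibitory receptor for class II, had a median of 10.9 CPM against 0.105 in GC B cells (log2 fold change -6.75, SE 0.35, adjusted p = 1.07e-09).

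Of 84 ligand and receptor pairs listed, 60 had both genes at a mean of at least 1 CPM in one of the cells. In 17 pairs the ligand was called higher in one cell and the receptor in the other. The ligand was on the GC B side in 10 of them and on the Tfh side in 7. In 12 of the 17 both genes were parted at a fold change over 4. Both genes were called on the same side in 15 pairs of different genes, 14 of them on the Tfh side. In 21 pairs only the ligand (6) or only the receptor (15) was called, in 2 neither was (in 1 of them the ligand Ifng was too low to test), and the remaining 5 were molecules that bind to themselves. Across the pair genes, 61 of the 121 tested were called higher in Tfh cells and 32 higher in GC B cells, where the shares over all genes were 24.2% and 20.1%. The pair list was built around known GC interactions, so these counts describe the list. In 1 of the 17, that of H2-Aa and Cd4, the receptor is a gate gene.

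**Figure D2:**
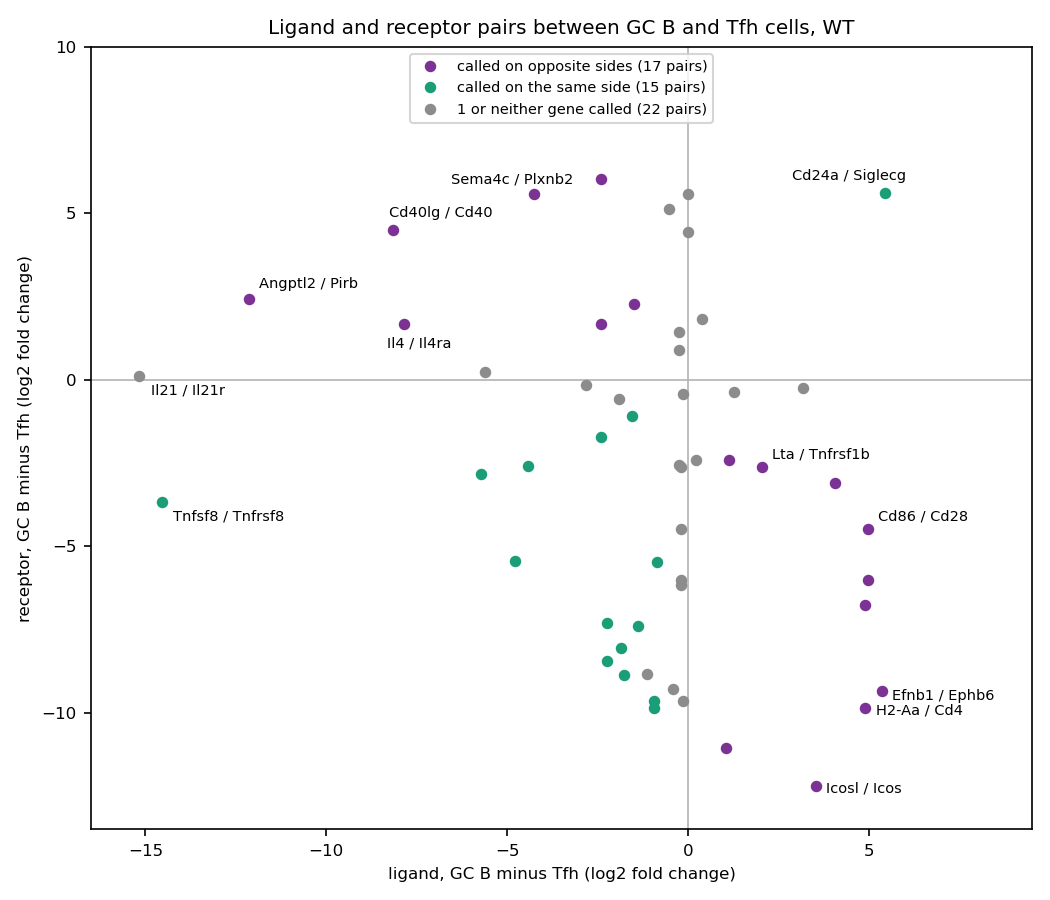
Log2 fold change (GC B minus Tfh) of the ligand on the x axis and of the receptor on the y axis, for 54 expressed pairs of different genes with both tested. The 17 pairs called on opposite sides fill the upper left (ligand in Tfh) and lower right (ligand in GC B), and 14 of the 15 called on the same side lie at the lower left, in Tfh cells.

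The helper ligands stood on the Tfh side. Cd40lg (chrX:57212143-57224042, mm10, GENCODE release M21), whose protein licenses B cells to survive selection, ranged from 135 to 184 CPM (median 172) in Tfh and from 0.237 to 0.966 (median 0.492) in GC B samples. Its log2 fold change was -8.16 (SE 0.23, adjusted p = 3.69e-12). Cd40, its receptor, ran the other way, with 61.8 to 104 CPM (median 86.2) in GC B and 2.49 to 5.30 (median 3.83) in Tfh samples. The groups did not overlap for either gene, and Cd40 had a log2 fold change of 4.51 (SE 0.20, adjusted p = 1.90e-10).

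Il21 (chr3:37222759-37232636) was the most one-sided gene of the pair list. No GC B sample held a count of it, and the Tfh samples held 4045 to 6228 counts, or 106 to 159 CPM (median 133). Set against a floor of 3 counts per library, Tfh cells were at least 1426-fold higher. Its receptor gene Il21r was expressed in both cells, with 355 to 489 CPM (median 403) in GC B and 322 to 439 (median 377) in Tfh samples. The ranges overlapped, and the log2 fold change was 0.12 (SE 0.09, adjusted p = 0.259). The ligand was thus counted in Tfh samples alone, and the receptor in all 12.

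Il4, the cytokine linked to class switching to IgG1 and IgE, was low in Tfh and near 0 in GC B samples, with 8.12 to 12.7 CPM (median 10.3) in Tfh and 0 to 0.105 in GC B samples (log2 fold change -7.86, SE 0.41, adjusted p = 1.02e-09). Il4ra was 236 to 384 CPM (median 318) in GC B and 86.7 to 110 (median 95.1) in Tfh samples, without overlap (1.67, SE 0.12, adjusted p = 2.23e-08). Il10 passed the call at a low level only, with 0.560 to 2.74 CPM in Tfh and 0.0266 to 1.19 in GC B samples, which overlap (-1.51, SE 0.58, adjusted p = 0.0344). That call was lost without any of GC B samples 2, 3 and 6 or Tfh samples 1, 3 and 6 (-1.27 to -1.51) and against Tfh samples 4 to 6 (-1.67). Il10ra was higher in GC B cells by 2.29 (SE 0.28, adjusted p = 5.44e-06). Of 17 helper cytokine genes, 10 were tested. Among these, 6 were called higher in Tfh cells (all genes 24.2%). Lta, the lymphotoxin gene, was the 1 called higher in GC B cells (all genes 20.1%). Ifng had a median of 1.06 CPM in Tfh samples and was not tested, and the other untested cytokines, among them Il5, Il6, Il9, Il13 and Il17a, had medians under 1 CPM in both cells.

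**Figure D3:**
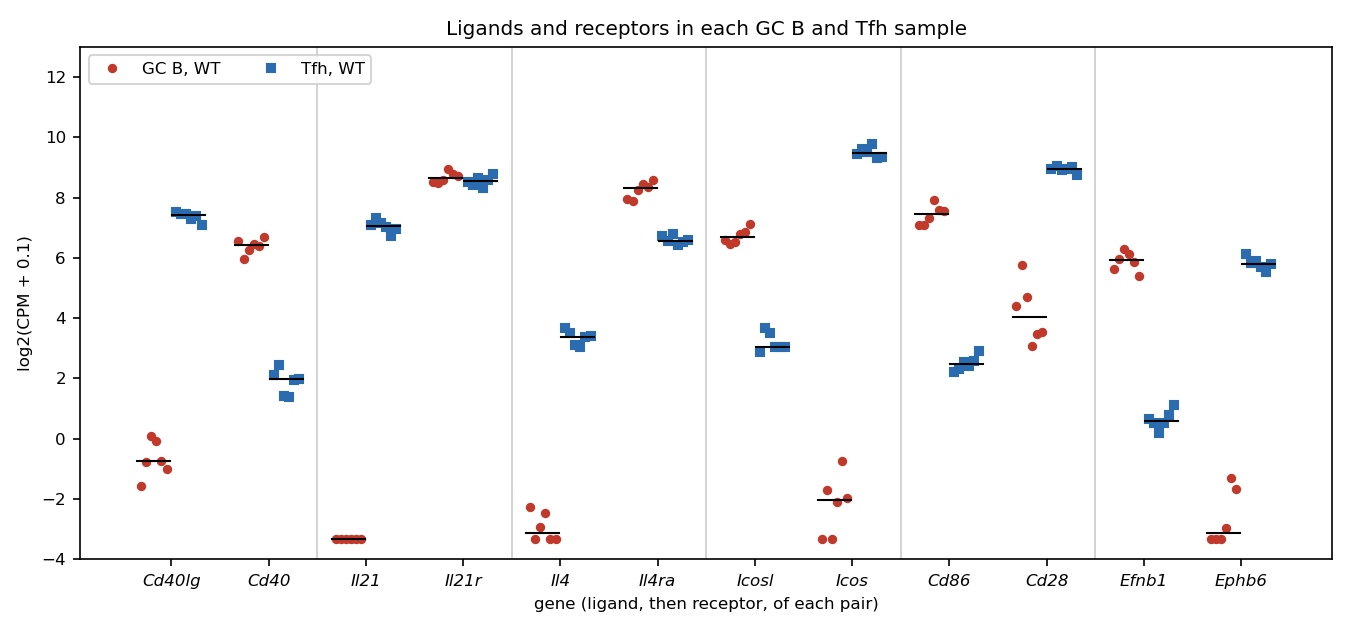
Level of 6 ligands and their receptors in each sample, as log2(CPM + 0.1), with GC B as circles, Tfh as squares and bars at group medians. Cd40lg, Il21, Il4, Icos, Cd28 and Ephb6 were higher in Tfh samples, Cd40, Il4ra, Icosl, Cd86 and Efnb1 in GC B samples. Il21r overlapped, and Il4 reached only 8.12 to 12.7 CPM in Tfh samples.

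Of 9 costimulation pairs, 2 had the ligand in GC B and the receptor in Tfh cells, 3 lay on the Tfh side, in 2 only the receptor was called and 2 were not both expressed. Icosl, the ligand of ICOS, ranged from 88.2 to 139 CPM (median 104) in GC B and from 7.27 to 12.7 (median 8.13) in Tfh samples (log2 fold change 3.53, SE 0.16, adjusted p = 3.17e-10). Icos, needed for Tfh maintenance, was 632 to 888 CPM (median 716) in Tfh and 0 to 0.500 in GC B samples (-12.22, SE 0.38, adjusted p = 7.28e-12). Cd86 ranged from 136 to 242 CPM (median 174) in GC B and from 4.503 to 7.38 (median 5.50) in Tfh samples (4.97, SE 0.18, adjusted p = 2.21e-11). None of these 3 genes overlapped between the cells. Cd80, the other ligand of CD28, was near 2 CPM in both and was not called, with medians of 2.30 and 2.501.

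The receptors of CD86 were on the T cell side, though not equally so. Ctla4, the inhibitory receptor, was 133 to 220 CPM in Tfh and 1.95 to 3.34 in GC B samples (-6.01, SE 0.18, adjusted p = 6.93e-12). Cd28, the activating receptor, was 430 to 532 CPM (median 499) in Tfh samples. In GC B samples it was not absent: it ranged from 8.31 to 54.6 CPM (median 16.2), highest in sample 2, while Cd3e stayed under 1 CPM in the same samples. The Cd28 difference was -4.49 (SE 0.42, adjusted p = 4.32e-07). GC B sample 2 also had the highest sum of plasma cell markers, 8939 CPM against 4133 to 5239 in the other GC B samples. The part of plasma cell RNA in the Cd28 level was not tested.

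Several TNF family receptors that carry costimulation were parted to the T cell without a matching ligand in the B cell. Tnfrsf4 (OX40) ranged from 220 to 423 CPM in Tfh and from 0.346 to 1.11 in GC B samples, and Tnfrsf9 (4-1BB) from 129 to 302 and from 0 to 0.612. Tfh sample 6 was the highest for both, for Ctla4 and for Ccr8, and its summed regulatory T cell markers (Ctla4 is one of them) were 1011 CPM against 602 to 759 in the other Tfh samples. The part of regulatory T cells in these levels was not tested. Their ligand genes were low in both, with medians of 0.383 CPM in GC B and 1.34 in Tfh samples for Tnfsf4, and 6.45 and 9.45 for Tnfsf9, which was not called. Tnfsf8, the CD30 ligand, was 289 to 446 CPM in Tfh samples and at most 0.0693 in GC B samples (-14.54, SE 0.30, adjusted p = 2.80e-13), and its receptor gene Tnfrsf8 was also higher in Tfh cells (-3.66, SE 0.25, adjusted p = 1.58e-08). GC B cells held the receptor side of the BAFF axis: Tnfrsf13c, the BAFF receptor, was 524 to 671 CPM in GC B and 1.68 to 15.3 in Tfh samples. Its log2 fold change of 6.05 (SE 0.40, adjusted p = 1.25e-08) was 6.79 against Tfh samples 4 to 6. Tnfsf13b, which encodes BAFF, was 2.52 to 3.62 CPM in Tfh and 0.181 to 1.05 in GC B samples, a low level on the opposite side (-2.40, SE 0.33, adjusted p = 1.88e-05). Tnfrsf13b (TACI), its other receptor here, was 303 to 435 CPM in GC B and 104 to 140 in Tfh samples.

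Lymphotoxin and TNF differed in pattern. Lta was the only tested helper cytokine called higher in GC B cells, with 47.9 to 70.8 CPM (median 62.7) against 12.8 to 16.5 (median 14.99) in Tfh samples (2.03, SE 0.11, adjusted p = 1.66e-09). Ltb, which pairs with LTα on the membrane, was 383 to 686 CPM in GC B and 379 to 520 in Tfh samples and was not called (0.20, SE 0.13, adjusted p = 0.193). Tnf was not called either, at medians of 16.4 and 19.2 CPM. Tnfrsf1b, paired here with Lta and Tnf, was on the T cell side, at 207 to 274 CPM in Tfh and 32.4 to 54.2 in GC B samples (-2.61, SE 0.13, adjusted p = 4.54e-10). Tnfrsf1a, the other receptor paired with Tnf, was also higher in Tfh cells (-6.175). Ltbr, paired with Ltb, was under 1 CPM in every sample.

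Of 9 inhibitory pairs, 4 lay on the Tfh side, 2 had the ligand in GC B and the receptor in Tfh cells (CD86 with CTLA4, class II with LAG3), and in 3 a single partner was called. Cd274, the gene of PD-L1, was higher in Tfh cells, where its receptor PD-1 is a gate gene, with 23.9 to 38.7 CPM against 10.4 to 29.2 in GC B samples. These ranges overlap, and the log2 fold change was -0.96 (SE 0.23, adjusted p = 0.00240). Pdcd1lg2, the other PD-1 ligand, was not called (medians 5.79 and 6.19 CPM). Tigit was 93.0 to 145 CPM in Tfh and at most 1.04 in GC B samples (-7.32, SE 0.17, adjusted p = 9.47e-13). Cd200 and its receptor Cd200r1 were both higher in Tfh cells, by -1.38 (SE 0.15, adjusted p = 1.96e-06) and -7.39 (SE 0.26, adjusted p = 2.04e-11). Btla, an inhibitory receptor of the HVEM axis, was not called, with 158 to 285 CPM in GC B and 192 to 316 in Tfh samples (-0.17, SE 0.15, adjusted p = 0.332).

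Adhesion genes split by member. Slamf6 (Ly108), which holds T and B cells in contact, was 645 to 806 CPM (median 738) in Tfh and 156 to 217 (median 190) in GC B samples (-1.92, SE 0.09, adjusted p = 2.70e-10). Cd84 showed the same direction (-1.86, SE 0.16, adjusted p = 1.43e-07). Slamf7 went the other way, with 168 to 248 CPM in GC B and 7.24 to 15.1 in Tfh samples (4.30, SE 0.19, adjusted p = 1.59e-10), as did Slamf1 (0.99, SE 0.08, adjusted p = 9.86e-08). Slamf7 also belongs to the plasma cell list. Ly9 and Cd48 were not called, with log2 fold changes of -0.33 and -0.26. Sh2d1a, which encodes the adaptor SAP that passes on SLAM signals in T cells, was 192 to 224 CPM in Tfh samples and at most 0.154 in GC B samples (-12.17, SE 0.24, adjusted p = 2.39e-13).

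In the integrin axis, Icam1 was higher in GC B cells (157 to 208 CPM against 69.8 to 98.6, 1.13, SE 0.10, adjusted p = 1.80e-07). Itgal, the alpha chain of LFA-1 that binds ICAM-1, was 1291 to 1619 CPM in Tfh and 241 to 303 in GC B samples (-2.40, SE 0.08, adjusted p = 9.07e-12). Alcam and its T cell receptor Cd6 had the same arrangement, at 12.8 to 22.2 CPM in GC B against 4.97 to 11.5 in Tfh samples for Alcam, and 861 to 1132 CPM in Tfh against 0.0264 to 1.46 in GC B samples for Cd6. Neither gene overlapped between the groups.

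Guidance molecules, better known from axon growth, formed 2 of the complementary pairs. Efnb1 (chrX:99136130-99148991), which encodes the membrane ligand ephrin-B1, was 41.9 to 78.8 CPM (median 60.1) in GC B and 1.03 to 2.08 (median 1.39) in Tfh samples (5.35, SE 0.20, adjusted p = 4.03e-11). Ephb6, an Eph receptor that lacks kinase activity, was 45.6 to 70.1 CPM (median 56.1) in Tfh and 0 to 0.308 in GC B samples (-9.36, SE 0.46, adjusted p = 5.97e-10). Plxnb2, the plexin-B2 receptor, was 206 to 381 CPM (median 297) in GC B and 2.22 to 8.17 (median 6.39) in Tfh samples (5.59, SE 0.29, adjusted p = 8.17e-10). Of its semaphorin ligands, Sema4c was on the Tfh side at a low level, 1.07 to 2.37 CPM against at most 0.302 (-4.25, SE 0.67, adjusted p = 6.87e-05). Sema4d was expressed in both, at 356 to 530 CPM in GC B and 409 to 506 in Tfh samples (0.00, SE 0.10, adjusted p = 0.967), while Cd72, another receptor for it, was on the B cell side at 221 to 587 CPM against 10.0 to 23.1. Angptl2, a secreted angiopoietin-like protein, was 495 to 682 CPM (median 552) in Tfh and at most 0.500 in GC B samples (-12.14, SE 0.39, adjusted p = 8.52e-12). Pirb, a receptor reported to bind such proteins, was on the B cell side at 16.0 to 51.0 CPM against 2.77 to 8.38 (2.43, SE 0.31, adjusted p = 8.24e-06). Dll1, a Notch ligand, was 5.95 to 12.1 CPM in GC B and 0.243 to 0.861 in Tfh samples, and Notch1 76.5 to 117 CPM in Tfh and 6.87 to 13.3 in GC B samples, without overlap.

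Of 20 chemokine and positioning receptors, 5 were called higher in GC B cells (all genes 20.1%) and 11, the gate gene Cxcr5 among them, in Tfh cells (all genes 24.2%). S1pr2, which confines cells to the GC, was 338 to 574 CPM (median 481) in GC B and 63.6 to 84.5 (median 73.8) in Tfh samples (2.66, SE 0.13, adjusted p = 4.13e-10). S1pr1, which promotes exit from lymph nodes, was opposite, at 318 to 419 CPM in Tfh and 38.4 to 163 in GC B samples (-2.25, SE 0.28, adjusted p = 8.61e-06). S1pr4, the receptor deleted in the other genotype, was 51.6 to 71.1 CPM (median 64.7) in Tfh and 17.03 to 36.9 (median 23.8) in GC B samples (-1.38, SE 0.17, adjusted p = 7.24e-06). These receptors did not overlap between the cells. Gpr183, a receptor for oxysterols at the follicle edge, was 390 to 553 CPM in Tfh and 44.2 to 123 in GC B samples (-2.73, SE 0.22, adjusted p = 9.97e-08). The cannabinoid receptor gene Cnr2 (2.62, SE 0.24, adjusted p = 2.91e-07) and Ccr6 (1.82, SE 0.33, adjusted p = 0.000214) were higher in GC B cells, as was Cxcr4, which draws cells to the dark zone (0.88, SE 0.11, adjusted p = 4.85e-06). Ccr8 and Ccr4, of the T cell side, had medians of 37.1 and 79.4 CPM in Tfh samples and under 1 CPM in GC B samples. Chemokine pairs could hardly be assessed in these libraries. In 7 of the 11, the ligand or receptor gene stayed under 1 CPM in both cells, Cxcl13 and Cxcl12 included. Ccl22, a ligand paired with Ccr4, was 1.60 to 6.22 CPM in GC B and 0.459 to 13.55 in Tfh samples and was not called. The pair list held no ligand of Ccr8.

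Of 25 cytokine receptors, 14 were called higher in Tfh cells (all genes 24.2%) and 4 in GC B cells (all genes 20.1%). Il2rb was 611 to 727 CPM in Tfh and 17.1 to 36.9 in GC B samples (-4.61, SE 0.17, adjusted p = 3.67e-11). Il6st, the shared chain of the IL-6 receptor family that promotes Tfh fate, was 268 to 337 against 11.1 to 24.4 CPM (-4.26, SE 0.17, adjusted p = 8.69e-11), and Il27ra 257 to 336 against 7.41 to 26.7. The 4 on the B cell side were Il10ra, Ifngr2, Il4ra and Tgfbr1, with log2 fold changes from 1.60 to 2.29. Cxcr3, whose product is a Th1-linked chemokine receptor, was 52.6 to 215 CPM in GC B and 171 to 243 in Tfh samples and was not called (-0.59, SE 0.27, adjusted p = 0.0685), although it passed without GC B sample 1 (-0.73) or 6 (-0.78).

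Antigen receptor pathways were parted on both sides. In the BCR list, 21 of 24 genes were called higher in GC B cells (all genes 20.1%) and none in Tfh cells. The median log2 fold change was 5.47. Syk, the proximal kinase of the BCR, was 643 to 839 CPM in GC B and 6.70 to 27.8 in Tfh samples (5.59, SE 0.28, adjusted p = 6.43e-10), and Btk 234 to 287 against 1.43 to 11.5 CPM (5.55, or 6.24 against Tfh samples 4 to 6). The 3 genes not called were Prkcb, Dapp1 and Pik3cd. In the TCR list, 23 of 25 were called higher in Tfh cells (all genes 24.2%) and none in GC B cells. The median was -7.14. Zap70, the T cell counterpart of Syk, was 467 to 643 CPM in Tfh and 0.449 to 1.15 in GC B samples (-9.35, SE 0.18, adjusted p = 2.39e-13). Lck was not as one-sided: it was 2276 to 2724 CPM in Tfh samples and 103 to 146 in every GC B sample (-4.40, SE 0.10, adjusted p = 9.47e-13). Vav1, which serves both receptors, was not called.

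**Figure D4:**
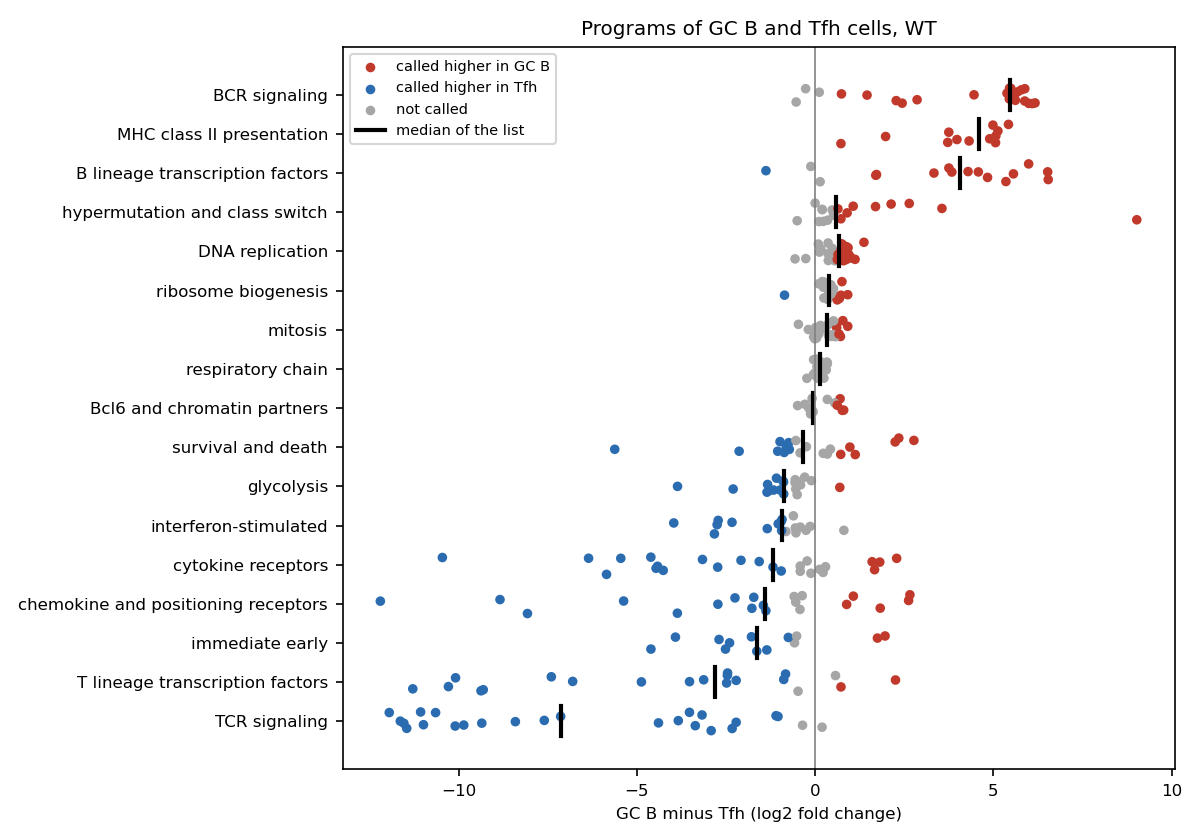
Log2 fold change (GC B minus Tfh) of each tested gene of 17 lists, coloured by call, with the list median as a black bar. Antigen receptor and lineage lists lie far from 0 on either side, mitosis (median 0.32) and the respiratory chain (0.12) near 0, and glycolysis (-0.89) and immediate early genes (-1.64) toward Tfh cells.

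Lineage factors followed the same division. Among 16 B lineage transcription factors, 13 were called higher in GC B cells and 1, Ets1, in Tfh cells (all genes 20.1% and 24.2%). Spib was 422 to 625 CPM in GC B and 2.02 to 9.86 in Tfh samples (6.54, SE 0.45, adjusted p = 1.73e-08, or 7.84 against Tfh samples 4 to 6). Bach2, which holds back plasma cell differentiation, was 236 to 321 against 7.52 to 15.2 CPM (4.58, SE 0.17, adjusted p = 2.92e-11). Of 20 T lineage factors, 16 were called higher in Tfh and 2 in GC B cells (all genes 24.2% and 20.1%). Tcf7, an early factor of Tfh fate, was 1548 to 2026 CPM in Tfh and 1.298 to 2.26 in GC B samples (-10.09, SE 0.16, adjusted p = 7.74e-14). Tbx21, the gene of the Th1 factor T-bet, was higher on the B cell side, with 17.7 to 61.1 CPM in GC B and 4.75 to 9.80 in Tfh samples (2.25, SE 0.30, adjusted p = 1.33e-05). Bcl6, the factor that both fates require, was 122 to 258 CPM in GC B and 98.4 to 139 in Tfh samples. Those ranges overlap, although the test passed (0.70, SE 0.16, adjusted p = 0.00187). Of 14 Bcl6 and chromatin genes, 4 were called higher in GC B cells and none in Tfh cells (all genes 20.1% and 24.2%). The 4 were Bcl6, Eed, Uhrf1 and Dnmt1. Dnmt1 fell under the fold of 1.5 without GC B sample 2, GC B sample 3 or Tfh sample 3 (0.56 to 0.58).

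All 10 GC B markers were called higher in GC B cells (all genes 20.1%) and 9 were parted (all genes 7.73%), with Bcl6 the exception. Their sum was 216 to 283 CPM in Tfh samples. Rgs13, a regulator of chemokine receptor signals, was 56.8 to 80.6 CPM in GC B samples and at most 8 counts in a Tfh sample, with none in Tfh samples 4 to 6. In the hypermutation and class switch list, 9 of 18 were called higher in GC B cells (all genes 20.1%) and none in Tfh cells. Hmces (2.64, SE 0.12, adjusted p = 1.71e-10), which shields abasic sites, and Polh (1.69, SE 0.16, adjusted p = 4.19e-07), the translesion polymerase of hypermutation, were among them. Ighe, the constant gene of IgE, was 72.9 to 504 CPM in GC B and 0 to 0.611 in Tfh samples (10.12, SE 0.67, adjusted p = 1.27e-08, or 10.74 against Tfh samples 4 to 6). Ighm was not silent in Tfh samples, at 819 to 1019 CPM, and this level did not move with the Ms4a1 level of the sample (819 to 1019 in samples 1 to 3 and 897 to 966 in samples 4 to 6).

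Among the genes with the largest difference at 100 CPM or more, those named among the 10 highest on the GC B side were Gcsam, Rassf6, Nuggc, Emid1, Bfsp2, Scimp, Ms4a1, Spib and Rab30, with log2 fold changes from 6.53 to 9.87. Against Tfh samples 4 to 6, Ms4a1 moved from 6.78 to 9.30, Bfsp2 from 7.51 to 9.04, Emid1 from 7.75 to 8.35 and Gcsam from 9.87 to 9.15. The 10 on the Tfh side were Il21, Tnfsf8, Icos, Sh2d1a, Angptl2, Cd3e, Cd3d, Themis, Cd3g and Bcl11b, from -11.29 to -15.19. Gcsam, a GC marker that dampens B cell motility, was 210 to 351 CPM in GC B and 0.0574 to 1.15 in Tfh samples. Of the 10 Tfh genes, 4 (Il21, Tnfsf8, Icos and Angptl2) are ligands or receptors of the pair list.

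Genes of cell division differed by small folds. In the DNA replication list, 20 of 32 genes were called higher in GC B cells (all genes 20.1%) and none in Tfh cells. The median was 0.67, and no gene was parted. Mcm5, a subunit of the replicative helicase, was 593 to 889 CPM in GC B and 347 to 515 in Tfh samples (0.86, SE 0.12, adjusted p = 1.53e-05). Against Tfh samples 4 to 6 the count was 13, and 1 gene was called higher in Tfh cells. In the mitosis list, 6 of 30 were called higher in GC B cells (median 0.32), which is the share found over all genes, and 1 against Tfh samples 4 to 6. Ccnb1, cyclin B1, was 190 to 426 CPM in GC B and 259 to 393 in Tfh samples (-0.04, SE 0.18, adjusted p = 0.845).

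Among metabolic genes, glycolysis was higher in Tfh cells for most of the genes called. Of 20 glycolysis genes, 11 were called higher in Tfh cells and 1, Hk2, in GC B cells (all genes 24.2% and 20.1%). The median was -0.89. Hk2 lost its call without GC B sample 2 (0.45) and against Tfh samples 4 to 6 (0.54). Ldha, lactate dehydrogenase A, was 2658 to 3490 CPM in Tfh and 1259 to 1553 in GC B samples (-1.09, SE 0.09, adjusted p = 1.14e-07). Slc16a3, a lactate exporter, was 42.8 to 103 against 2.11 to 6.81 CPM (-3.86, SE 0.31, adjusted p = 1.03e-07). None of 22 respiratory chain genes was called, and their log2 fold changes lay between -0.23 and 0.34. In ribosome biogenesis 5 of 20 genes were called higher in GC B cells, close to the 20.1% of all genes, and 1 in Tfh cells (median 0.38). Cholesterol synthesis had 2 of 16 called on each side, under the 20.1% and 24.2% of all genes.

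Immediate early and interferon-stimulated genes were higher in Tfh cells. Immediate early genes respond within the hour to receptor signals and to handling. Of 13, 9 were called higher in Tfh and 2 in GC B cells (all genes 24.2% and 20.1%). Egr1 (188 to 261 against 45.5 to 86.9 CPM), Egr2 (95.4 to 153 against 15.1 to 25.7) and Nr4a1 (74.7 to 114 against 7.03 to 23.8) did not overlap. Jun and Atf3 went the other way, Jun at 7.01 to 30.1 CPM in GC B and 3.65 to 8.12 in Tfh samples. Atf3 stayed under 1 CPM in every sample, at 0.276 to 0.9997 in GC B and 0.0255 to 0.381 in Tfh samples. The ranges of both genes overlapped. Of 18 interferon-stimulated genes, 10 were called higher in Tfh cells (all genes 24.2%) and none in GC B cells. Against Tfh samples 4 to 6, 7 were called. Ifit1 was 85.0 to 281 CPM in Tfh and 4.32 to 18.2 in GC B samples (-3.97, SE 0.46, adjusted p = 3.51e-06), while Bst2 and Mx1 were not called, although Mx1 passed without GC B sample 6 (-1.13).

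Of 20 survival genes, 6 were called higher in GC B (all genes 20.1%) and 8 in Tfh cells (all genes 24.2%). GC B cells, which die readily without help, had more of the death-promoting Bcl2l11 (BIM), at 47.1 to 79.2 CPM against 10.1 to 18.6 (2.24, SE 0.16, adjusted p = 2.65e-08), and of Bid (222 to 274 against 41.2 to 53.8). They also had more of the protective Mcl1, at 395 to 530 against 253 to 317 CPM (0.72, SE 0.09, adjusted p = 5.98e-06). Bcl2 was lower in GC B cells (-0.81, SE 0.29, adjusted p = 0.0223), with overlapping ranges of 12.1 to 58.5 and 41.2 to 65.5 CPM, and it was not called against Tfh samples 4 to 6 (-0.66). Fasl, the death ligand of FAS, was on the Tfh side, at 4.82 to 9.83 CPM against at most 0.520.

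The question whether these differences belong to the GC cells or to B and T cells at large was addressed by the term (GC B minus Tfh) minus (non-GC B minus non-Tfh), fitted over 23 samples. Of 15101 genes tested, 3064 (20.3%) had a term above 0 and 3227 (21.4%) a term below 0 at an FDR under 0.05. Among the pair genes, 20 of 124 had a term above 0 and 48 a term below 0. The summed B cell markers were 14.3 to 53.3 CPM in non-Tfh samples, well under the 145 to 469 of the Tfh samples, and all 12 B cell markers had a term below 0. In the mitosis list, 19 of 30 genes had a term above 0 and none below, with a median of 1.64 and a median of -1.39 for non-GC B minus non-Tfh. The summed B cell markers had a median of 16992 CPM in non-GC B and 10038 in GC B samples. The sum of the MHC class II list had medians of 65225 and 32305. The non-GC values come from the scaling of that comparison. Terms of B cell genes such as H2-Aa (-4.20), Cd74 (-3.77) and Cd40 (-3.96) stand beside both differences, whose part in them was not tested. The GC B and Tfh sums in this paragraph are in the scaling of the main comparison. The non-GC B and non-Tfh sums, and levels in the next paragraph unless stated otherwise, are scaled over the 23 libraries.

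Efnb1 had a term above 0. It was 42.4 to 79.5 CPM in GC B cells and 1.25 to 4.90 in non-GC B cells, with 1.05 to 2.11 in Tfh and 3.25 to 3.71 in non-Tfh cells (term 5.57, SE 0.35, adjusted p = 2.14e-11). Its partner Ephb6 had medians of 99.3 CPM in non-Tfh and 56.9 in Tfh samples, with a term of 3.25 (SE 1.08, adjusted p = 0.0186) that rests on GC B counts near 0. Plxnb2 was 208 to 384 CPM in GC B and 9.47 to 15.1 in non-GC B cells (term 1.51, SE 0.38, adjusted p = 0.00260). Cd86 had a median of 73.4 CPM in non-GC B and 176 in GC B cells (term 1.90, SE 0.25, adjusted p = 2.32e-06), and Cd28 was 8.43 to 55.4 CPM in GC B against 0.391 to 2.08 in non-GC B cells (term 3.84, SE 0.55, adjusted p = 6.71e-06). The plasma cell list summed to 569.5 to 934 CPM in non-GC B samples. In GC B samples it was 4133 to 8939 in the scaling of the main comparison. Its part in the Cd28 term was not tested. Icosl had a term below 0, at 89.3 to 141 CPM in GC B and 446 to 520 in non-GC B cells (term -2.18, SE 0.23, adjusted p = 6.80e-08), while Icos had medians of 130 CPM in non-Tfh and 727 in Tfh samples (term -3.32, SE 0.94, adjusted p = 0.00679). Angptl2 was 502 to 693 CPM in Tfh and 0.958 to 17.3 in non-Tfh cells (term -6.49, SE 2.00, adjusted p = 0.0118). The term for Cd40lg was 1.90 (SE 0.48, adjusted p = 0.00288), although Tfh and non-Tfh medians were 174 and 134 CPM, and it also rests on low B cell counts. Il21 had no count in B cells of either kind, so its term could not be estimated, and its Tfh median of 136 CPM stood beside 0.719 in non-Tfh cells.

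**Figure D5:**
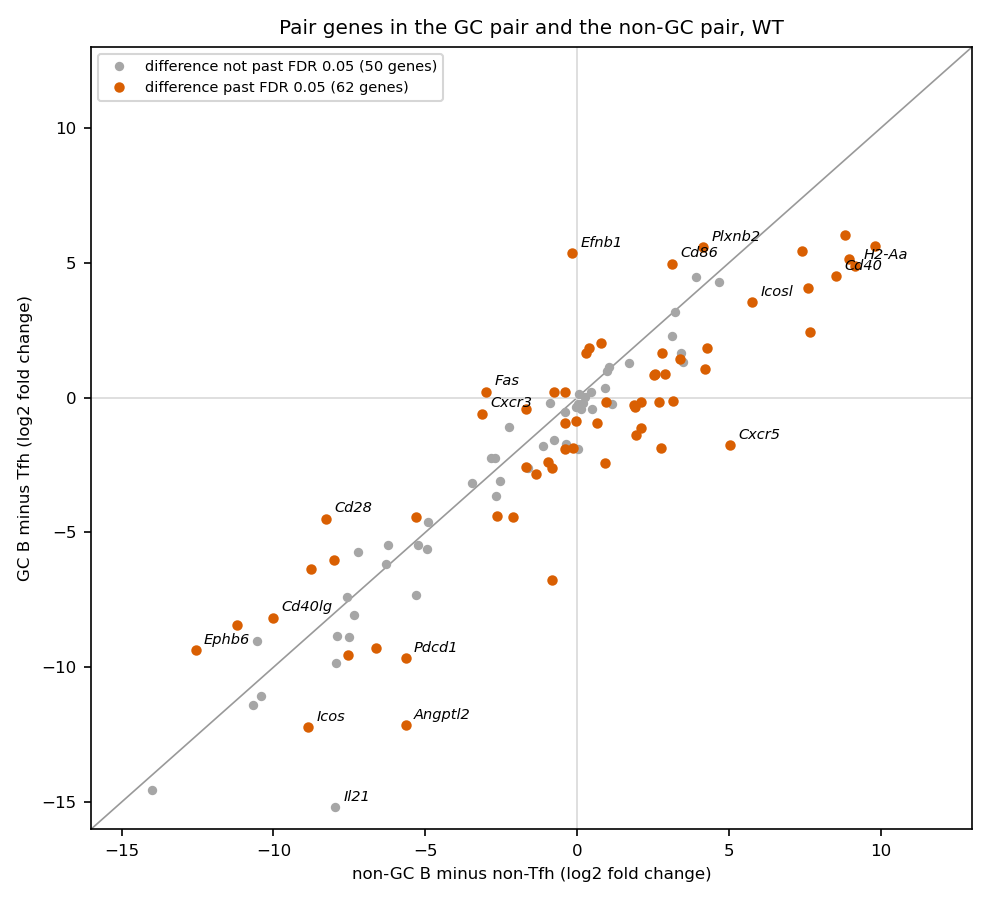
Log2 fold change of non-GC B minus non-Tfh cells (x axis) against GC B minus Tfh cells (y axis) for 112 pair genes tested in all fits, with the line of equal values. Of these, 62 had a difference past an FDR of 0.05 (orange), among them Efnb1, Plxnb2 and Cd86 above the line and Icos, Angptl2 and Cxcr5 below it.

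The pair of S1PR4-/- mice was parted in much the same way. S1pr4 held 0 to 4 counts in S1PR4-/- GC B and 10 to 40 in S1PR4-/- Tfh samples, against 505 to 1205 and 1811 to 3170 in WT, as the labels say. Of 13591 genes, 2755 (20.3%) were called higher in GC B and 3038 (22.4%) higher in Tfh cells. Of the 93 pair genes called in WT, 88 were called in the same direction, and the 17 complementary pairs of WT were complementary there too. The difference between genotypes in the GC B minus Tfh contrast passed for 5 of 14691 genes (0.034%), namely Eaf2 (3.36), Prr5 (1.84), Nuggc (4.35), 4933404K13Rik (3.35) and the segment Ighv2-2 (9.17), all with a larger GC B excess in S1PR4-/- cells. None of the pair genes was among them. The count was 131 with DESeq2, 25 with all 8 groups in one fit and 3 with the replicate block. With DESeq2 it held 4 pair genes (Sema4c, Ephb6, Cd27 and Cd24a), and with all 8 groups 1 (Cd24a). The summed B cell markers were 144 to 279 CPM in S1PR4-/- Tfh and 145 to 469 in WT Tfh samples, and their part in the 5 genes of the quasi-likelihood test was not tested.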

How the data were processed

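The authors deposited one gene table of RSEM expected counts for sorted lymph node populations, which were sequenced in bulk and aligned to mm10. Columns were matched to samples by title. The members and gene lists were chosen with earlier results of these data known. Expected counts were rounded to whole numbers (8.83% of values were not whole), filtered with filterByExpr and scaled by TMM. WT GC B and WT Tfh samples were then compared with edgeR 4.0.16 (R 4.3.3) glmQLFit and glmQLFTest, with Benjamini-Hochberg adjustment. The study's methods used DESeq2, which was an alternative here (version 1.42.0), as were limma voom (3.58.1), other scalings and filters, all 8 groups in one fit, a replicate block and leaving out each sample. Tfh samples 4 to 6 alone was added after seeing the data. SE was computed as the absolute log2 fold change over the square root of F. Named genes were, for each list, members with the largest absolute log2 fold change at a mean of 1 CPM or more, the 10 largest differences each way among parted genes at 100 CPM or more without overlap (immunoglobulin and TCR segments left out), pair genes with a term against the non-GC pair, and S1pr4. List members outside this rule, such as those not called, were chosen after their values were seen. Some genes that the rule takes in are not reported here. The comparison of WT GC B with WT Tfh samples was tested on simulated data with edgeR, DESeq2 and limma voom. The other fits were not tested in this way. Depth was 26299429 to 43668027 counts a sample. Gene coordinates are from GENCODE M21, which the gene IDs of the table match, although the methods name M30. Promoter windows are from RefSeq on GRCm38.p6. Reads were counted against gene copies that can share sequence, so H2 and immunoglobulin genes are less certain.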

Additional observations from a re-analysis of the deposited data

Results flagged for a closer look

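In 6 samples of a cell type, a single sample stood apart (by Dixon's criterion at 95%) in 20 of 275 groups of named genes, where chance gives about 1 in 20. GC B sample 2 stood apart for Hk2 (highest of its group at 32.17 CPM, next 19.32), Il6st (highest of its group at 24.38 CPM, next 15.73). GC B sample 4 stood apart for Lck (highest of its group at 145.6 CPM, next 117). GC B sample 5 stood apart for Cd6 (highest of its group at 1.461 CPM, next 0.4831), Foxp3 (highest of its group at 1.077 CPM, next 0.09058). GC B sample 6 stood apart for Gcsam (lowest of its group at 209.5 CPM, next 304.2), Il27ra (highest of its group at 26.73 CPM, next 13.64), Lyz2 (highest of its group at 171.2 CPM, next 75.53). Tfh sample 1 stood apart for Cd3d (highest of its group at 648.2 CPM, next 552.9), Lck (highest of its group at 2723.9 CPM, next 2410.4), Slamf1 (highest of its group at 56.38 CPM, next 49.3), Zap70 (highest of its group at 642.9 CPM, next 528.2). Tfh sample 2 stood apart for H2-Aa (highest of its group at 169.2 CPM, next 100.3), H2-Eb1 (highest of its group at 128.7 CPM, next 82.4), Rab30 (highest of its group at 2.547 CPM, next 1.217). Tfh sample 3 stood apart for Tnfsf8 (highest of its group at 446.4 CPM, next 330.2). Tfh sample 4 stood apart for Nr4a1 (highest of its group at 113.9 CPM, next 87.5). Tfh sample 5 stood apart for Gcsam (highest of its group at 1.148 CPM, next 0.228). Tfh sample 6 stood apart for Ccr8 (highest of its group at 72.67 CPM, next 39.52), Ctla4 (highest of its group at 220.3 CPM, next 164).

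The GC B minus Tfh difference (log2) differed between S1PR4-/- and WT mice, by an interaction term in edgeR's quasi-likelihood test, for Eaf2 (3.36), Prr5 (1.84), Nuggc (4.35), Ighv2-2 (9.17), 4933404K13Rik (3.35). It differed between the GC pair and the non-GC pair, by the same kind of term, for Efnb1 (5.57), Ephb6 (3.25), Plxnb2 (1.505), Angptl2 (-6.49), Icos (-3.32), Icosl (-2.18), Cd86 (1.90), Cd28 (3.84), Cd40 (-3.96), Cd40lg (1.90), Cxcr3 (2.61), Cxcr5 (-6.76), Pdcd1 (-3.96), Fas (3.28), Il4ra (1.41), Il7r (2.43), Cd74 (-3.77), H2-Aa (-4.20), Itgal (-1.37), Lta (1.28), Tox (6.87), Lcp2 (5.90). Fas, Pdcd1 and Cxcr5 are gate genes. Each named gene was chosen with earlier results known, and the term for Il7r no longer passed with Tfh samples 4 to 6 alone (adjusted p = 0.0531).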

How the results depend on the processing

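The 6077 genes called between WT cells, the 17 complementary pairs and the 6291 genes of the non-GC comparison stayed within 1.5 times of their counts under every alternative run (5984 to 7765, 12 to 18 and 5280 to 6700). Parted genes numbered 4166 with no filter on low counts, against 2449. The 5 genes of the genotype difference were 131 with DESeq2, 25 with all 8 groups and 3 with the replicate block (1247 at an unadjusted p under 0.05). Leaving out each sample gave 6074 to 6325 called genes, 2524 to 2625 parted genes and 16 to 17 pairs. Of 152 named genes tested, 141 kept direction and call in every alternative.

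Same-numbered samples correlated by -0.103 to 0.107, and 0 of 6 samples correlated best with their own number. Such correlations between different cell types cannot decide whether the numbers share a batch. GC B and Tfh cells were sorted from nodes taken on different days, so equal numbers cannot mark the same mouse. The labels give the numbers no other meaning. With the replicate block 5984 genes were called, 2486 parted and 17 pairs were complementary.

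Genes near 0 changed sign. Sema4d was -0.018 with Tfh samples 4 to 6, -0.0038 with all 8 groups, -0.00188 with limma voom, -0.0019 with the replicate block, -0.0071 with no filter, -0.0599 with total counts and -0.0472 to 0.0652 without single samples. Ccnb1 was -0.159 to 0.0648 without single samples. Depth limits genes under about 1 CPM in both cells.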

Other observations

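Several genes better known from T cells were counted in GC B samples while Cd3e stayed under 1 CPM there. In the 23-library scaling, Tox, a factor of T cell development, was 30.9 to 45.3 CPM in GC B and at most 0.398 in non-GC B samples, beside 194 to 249 in Tfh samples. Lcp2, the adaptor SLP-76 of TCR signalling, was 73.2 to 105 CPM in GC B and 0.475 to 1.99 in non-GC B samples, beside 600 to 690 in Tfh samples. Cxcr3 was 53.1 to 217 CPM in GC B and 0.692 to 4.31 in non-GC B samples. In each of these 3 genes the B cell groups did not overlap.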
